A study of Mus musculus with 20 samples.

Results

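In sorted mouse cardiac fibroblasts, 1174 stretches of chromatin were called accessible at day 7 after myocardial infarction (MI) and at no other sampled time that the selection used. They were found by merging the peaks of 10 ATAC-seq lists on chromosomes 1 to 19 and X wherever peaks shared at least 1 bp, which gave 143246 regions. A region was kept when both day 7 lists had a peak in it and neither list from uninjured hearts, from day 3 or from week 4 did. Week 2 peaks took part in the merging but in no other step of the choice. With only the 8 lists of the rule merged, 1182 regions were kept. Each region was linked to the nearest gene within 100 kb. The peak calls of those 8 lists are thus a description. The RNA levels of the linked genes are a separate measurement, as are the week 2 peaks apart from the merging.

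ATAC-seq uses a transposase (Tn5) that cuts and tags open chromatin, and RNA-seq was made from the same kind of sorted cells. Both assays had 2 libraries from each of 5 groups, an uninjured one and 4 sampled after MI, at day 3, day 7, week 2 and week 4. All mice, uninjured ones included, carried a tamoxifen-inducible Cre recombinase (MerCreMer) that marks the Tcf21 lineage with eGFP. They received tamoxifen at 75 mg per kg body weight per day for 5 days. The eGFP-positive cells were sorted from digested hearts with a gate set on wild-type cells without eGFP, and RNA came from 10000 sorted cells. The RNA libraries held 16397211 to 21043997 expected counts each. The sources used here give no strain, age or sex. They also do not tie libraries to animals, so each p-value reflects spread between libraries that may be technical.

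After MI, resident cardiac fibroblasts proliferate, become contractile myofibroblasts that deposit collagen, and later settle into a stable scar. Accessible stretches away from gene starts often act as enhancers, which bind transcription factors and act on genes at a distance, whereas accessible stretches at starts are promoters. Macrophages and growing capillaries fill the infarct in the same period, and ETS-family factors such as PU.1 in macrophages and ERG in endothelial cells bind DNA with a GGAA core.

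Few of the regions lay at gene starts. Of the 1139 regions with a start distance, 30 (2.63%) lay within 1 kb of a RefSeq gene start, and 19 covered one. Of the 30 genes with these starts, 13 were not in the count table, all of them predicted or unnamed genes, and 17 were. The 17 were not tested against any gene list, and 5 of them were at or near 0 in nearly all RNA libraries. They included genes known from leukocytes: Ptprc (the pan-leukocyte phosphatase CD45), C1qc (a chain of complement C1q, made by macrophages), Dock2 (a Rac activator of blood cells), Cd300a (an inhibitory receptor), Ly86 (the partner protein of RP105) and Hpgds (prostaglandin D synthase). They also included Tie1 (an endothelial receptor tyrosine kinase), Erg (an ETS-family transcription factor of endothelium) and Ctla2a (a cysteine protease inhibitor).

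The 250 bases before the start are shown for the 9 of the 17 genes in which the region covered a start and the mean RNA level stood highest at day 7. Ptprc and Ctla2a each have another start under the region, whose window is not printed. All are RefSeq sequence of build GRCm38.p6, written 5′ to 3′ on the strand of the gene. Capitals mark matches, on either strand, to the motifs searched. The ETS forms were GAGGAAG for PU.1 and the form CAGGAAG for ERG. The E-boxes were CAGCTG and, in another form, CAGATG. The other motifs were TGANTCA for AP-1 factors, TGTGGTT for RUNX factors, GGAATG for TEAD factors, ACAATGG for SOX factors, TTGGCA for NFI factors, AGATAA for the GATA family, and the CArG box.
Ptprc (chr1:138175127-138175376, minus strand): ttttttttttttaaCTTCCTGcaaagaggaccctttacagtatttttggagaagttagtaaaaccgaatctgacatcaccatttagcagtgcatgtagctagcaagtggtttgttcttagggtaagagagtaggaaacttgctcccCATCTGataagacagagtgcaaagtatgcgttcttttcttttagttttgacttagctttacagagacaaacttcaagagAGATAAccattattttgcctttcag
C1qc (chr4:136892915-136893164, minus strand): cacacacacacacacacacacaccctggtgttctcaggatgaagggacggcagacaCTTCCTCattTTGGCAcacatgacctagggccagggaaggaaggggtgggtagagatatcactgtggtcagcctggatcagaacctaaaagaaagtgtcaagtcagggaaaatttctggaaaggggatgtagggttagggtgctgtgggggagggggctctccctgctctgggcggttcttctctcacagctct
Dock2 (chr11:34783906-34784155, minus strand): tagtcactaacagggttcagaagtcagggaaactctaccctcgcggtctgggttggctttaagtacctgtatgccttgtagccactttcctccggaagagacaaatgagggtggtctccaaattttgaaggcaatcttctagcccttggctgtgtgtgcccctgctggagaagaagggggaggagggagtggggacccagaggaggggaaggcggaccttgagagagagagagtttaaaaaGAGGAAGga
Hpgds (chr6:65144731-65144980, minus strand): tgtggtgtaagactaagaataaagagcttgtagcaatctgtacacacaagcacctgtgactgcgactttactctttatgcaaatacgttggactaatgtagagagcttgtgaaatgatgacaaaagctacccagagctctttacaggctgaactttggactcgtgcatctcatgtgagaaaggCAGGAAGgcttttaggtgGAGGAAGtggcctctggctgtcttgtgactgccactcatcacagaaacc
Tie1 (chr4:118489850-118490099, minus strand): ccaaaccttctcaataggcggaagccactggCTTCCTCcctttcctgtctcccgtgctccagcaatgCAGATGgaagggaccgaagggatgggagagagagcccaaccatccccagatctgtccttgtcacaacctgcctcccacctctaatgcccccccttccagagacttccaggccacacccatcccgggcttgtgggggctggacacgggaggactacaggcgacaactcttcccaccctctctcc
Erg (chr16:95459349-95459598, minus strand): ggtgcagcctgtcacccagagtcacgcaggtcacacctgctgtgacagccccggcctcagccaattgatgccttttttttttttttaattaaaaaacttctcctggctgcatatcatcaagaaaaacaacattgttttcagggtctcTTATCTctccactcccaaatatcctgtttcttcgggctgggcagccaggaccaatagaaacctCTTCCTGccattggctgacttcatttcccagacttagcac
Ctla2a (chr13:60936567-60936816, minus strand): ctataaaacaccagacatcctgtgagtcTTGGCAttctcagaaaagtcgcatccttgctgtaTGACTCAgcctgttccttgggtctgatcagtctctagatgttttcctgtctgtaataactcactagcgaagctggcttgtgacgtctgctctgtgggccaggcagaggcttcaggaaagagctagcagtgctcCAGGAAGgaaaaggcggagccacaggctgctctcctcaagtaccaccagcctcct
Rasgrp3 (chr17:75435655-75435904, plus strand): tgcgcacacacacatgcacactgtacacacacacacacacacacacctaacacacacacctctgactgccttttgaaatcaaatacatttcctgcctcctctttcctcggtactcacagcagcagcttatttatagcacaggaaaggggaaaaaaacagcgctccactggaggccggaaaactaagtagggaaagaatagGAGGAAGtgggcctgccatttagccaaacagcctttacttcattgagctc
Fam167b (chr4:129578581-129578830, minus strand): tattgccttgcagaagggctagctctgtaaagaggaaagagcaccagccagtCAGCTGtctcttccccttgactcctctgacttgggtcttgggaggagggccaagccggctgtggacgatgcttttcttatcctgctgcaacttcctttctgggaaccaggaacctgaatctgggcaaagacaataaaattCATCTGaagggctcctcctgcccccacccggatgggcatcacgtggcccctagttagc
Ptprc, Erg, Ctla2a and Hpgds each held CAGGAAG or its reverse complement CTTCCTG in these windows. C1qc, Dock2, Tie1, Rasgrp3 and Hpgds held GAGGAAG or its reverse complement CTTCCTC. Fam167b held neither, and neither did the 250 bases before the other Ctla2a start. The ETS forms share the letters AGGAAG, so they differ in 1 base.

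Over the 300-base promoter windows of RefSeq, which reach 50 bases past the start, the regions overlapped the windows of 23 genes. GAGGAAG was present at 9 of them (39.1%), against 15.4% of all 27025 genes with a window. CAGGAAG was present at 7 (30.4%, against 14.8%) and AGATAA at 6 (26.1%, against 12.7%). The E-box CAGATG was present at 8 (34.8%, against 19.2%) and CAGCTG at 7 (30.4%, against 18.3%). TGANTCA, the AP-1 site, was present at 3 (13.04%, against 8.97%), and GGAATG, the TEAD site, at 2 (8.70%, against 16.6%). For comparison, GAGGAAG was present at 12.3% of the 236 genes whose windows overlapped regions called only at day 3, and at 21.4% of the 332 whose windows overlapped regions called at day 3 and day 7. These matches are letters in a window and were not tested as binding sites. CAGGAAG was added to the search after the gene names were known.

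Most of the regions were weak peaks. The authors' fold enrichment, the height of a peak's summit over its local background, had a median of 3.49 in day 7 replicate 1, with quartiles of 2.95 and 4.03, and a median of 3.48 in replicate 2, with quartiles of 2.98 and 3.97. The medians of the complete lists were 5.64 and 5.21, and only 3.75% and 3.24% of the regions were above them. All these values were whole multiples of a step of 0.268 in replicate 1 and 0.248 in replicate 2 (within 0.01 of a step). The lowest value in the regions was 9 and 10 steps, and the median 13 and 14 steps. The regions spanned 334 to 2952 bp, with a median of 854 bp against 1169 bp for all regions. Other classes called in 1 group had like medians, 838 bp for day 3 only, 881 bp for uninjured only and 938 bp for week 4 only. The median was 1311 bp for day 3 and day 7, and 491 and 414 bp for regions in 1 day 7 list alone. Merging can only widen a region as more lists have peaks in it, so these widths also reflect the number of lists. The summits of the day 7 lists lay a median of 164 bp apart, and in 34.2% of the regions within 100 bp. Only 151 regions (12.9%) reached a −log10 q of 5 in both day 7 lists.

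**Figure D1:**
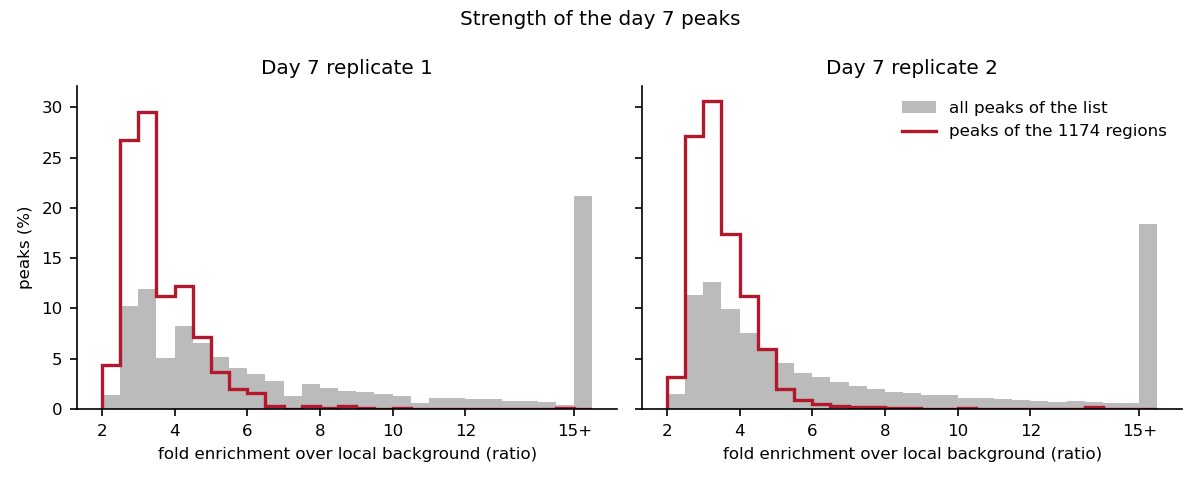
Percent of peaks (vertical axis) by fold enrichment over local background (horizontal axis, ratio, bins of 0.5, last bin 15 and more) in each day 7 list. The outline shows the peaks of the 1174 regions and the grey area all peaks of that list. The outline is highest near 3, while 17.8% of the peaks in replicate 1 and 19.4% in replicate 2 lie below the regions' median.

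The selection stands on a narrow edge. Another 1823 regions had both day 7 peaks and a peak in exactly 1 of the 6 lists that had to be empty. In 727 of them that list was day 3 replicate 2, in 564 week 4 replicate 2, in 317 day 3 replicate 1 and in 148 week 4 replicate 1. Only 47 and 20 had their extra peak in an uninjured list. The median fold enrichment of that extra peak was 3.201 to 3.525, close to the day 7 medians of the regions that were kept. The lists of these groups also differed in length, from 63882 peaks in uninjured replicate 1 to 107774 in day 3 replicate 2, with 93661 and 88250 at day 7. With day 3 replicate 2 left out of the rule, 1901 regions would be kept, and with day 7 replicate 1 or replicate 2 left out, 6647 or 6168. A further 4994 regions had a peak in day 7 replicate 1 alone among the 8 lists, and 5473 in replicate 2 alone.

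Week 2 was sampled but, apart from the merging, not used in the choice, and a large share of the regions was called there. Week 2 replicate 1 had a peak in 331 regions (28.2%) and replicate 2 in 317 (27.0%). Both had one in 137 (11.7%), at least 1 had one in 511 (43.5%), and 663 (56.5%) had none. By the same measure, 8.31% of the regions called only at day 3, 13.7% of those called only in uninjured hearts and 55.6% of all regions had a peak in at least 1 week 2 list. Regions called in only 1 of the day 7 lists had a week 2 peak in 12.9% of cases for replicate 1 and 7.82% for replicate 2. Regions called at day 3 and day 7 had one in 58.0% of cases. For the 327 regions called only at week 4 the share was 45.26%, with 16.2% in both lists, so the day 7 regions did not stand apart from these. Stronger peaks were more often called at week 2: of the 151 regions with a −log10 q of 5 or more in both day 7 lists, 71.5% had a week 2 peak and 29.8% had one in both lists, against 39.4% and 8.99% of the other 1023. These shares describe peak calls in 2 libraries and carry no test.

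**Figure D2:**
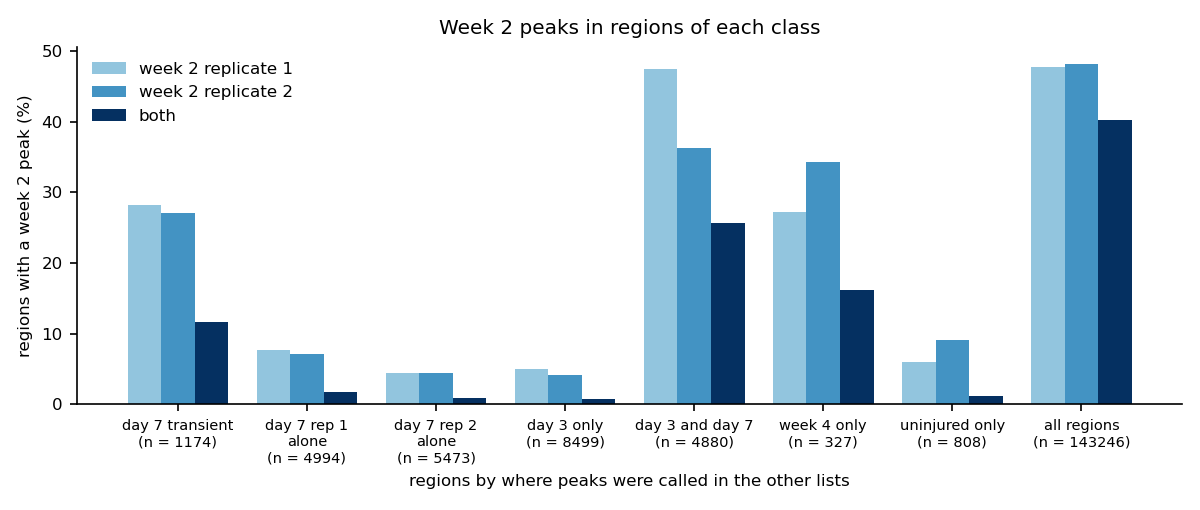
Percent of regions (vertical axis) with a peak in week 2 replicate 1, in replicate 2 or in both (bars), for the day 7 regions and for regions chosen by where peaks were called in the other lists (horizontal axis, with the number of regions). The day 7 regions stand at 28.2%, 27.0% and 11.7%, above the regions called in 1 day 7 list only and below those called at day 3 and day 7. Regions called only at week 4 stand at 27.2%, 34.25% and 16.2%.

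Most of the regions lay away from gene starts. Of the 1174, 522 (44.5%) overlapped a gene's span, 463 (39.4%) were linked to a gene within 100 kb, and 189 (16.1%) had none, whereas 60.4% of all regions overlapped a span and 8.48% had no gene within reach. Start distances could not be given for the 35 regions on chromosome 18, which the RefSeq start table used here leaves out. The median distance to a RefSeq start was 30.2 kb, against 20.3 kb for all regions. Starts lay within 1 kb of 2.63% of the regions, of 11.5% of all regions, of 4.51% of those called only at day 3 and of 8.28% of those called at day 3 and day 7. Other small classes were alike in this: the share was 0.949% for week 4 only, 2.59% for day 7 replicate 1 alone, 3.14% for replicate 2 alone and 3.57% for uninjured only. Regions called only in uninjured hearts lay farther from a start (a median of 39.9 kb) and were more often without a gene within reach (20.8%) than the day 7 regions, by these values. The regions were spread over the genome: only 17 of the 1154 gaps between neighbours were under 10 kb. Chromosome X held 45 of them (3.83%, against 2.59% of all regions).

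Ranked by the lower value of the day 7 pair, the strongest region lay on chromosome X at chrX:26589975-26590368 (mm10), 44410 bp from Slx, a member of a multicopy gene family of the testis. Its fold enrichment was 14.8 and 8.69 at day 7 and 14.9 in week 2 replicate 2, with no peak in week 2 replicate 1. The next 2 regions lay within the span of Snd1, which encodes a nuclease of RNA-silencing complexes, at chr6:28927891-28928334 (7.78 and 13.9) and chr6:28929182-28930035 (8.59 and 10.4). The first of these had no week 2 peak. The region at chr8:41148417-41149371, 14691 bp from Mtus1, a gene for a microtubule-associated protein, stood at 10.5 and 7.70 and had peaks in both week 2 lists. So did the region at chr12:32237498-32239306, with 8.86 and 7.20. It lay 28839 bp from its linked gene Pik3cg, which encodes a phosphoinositide 3-kinase subunit of leukocytes. The nearest RefSeq start of any gene was 6959 bp away. Of the 8 regions with the highest lower value of the day 7 pair, 7 had a peak in at least 1 week 2 list.

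The RNA of the genes with a start at a region stood out at day 7. Levels are given as CPM, counts scaled to the effective library size, and those of different genes are not comparable because they are not per length. Of the 17 genes in the count table, 11 had both day 7 libraries above all 8 other libraries, against 2.32% of all genes in the table. The 11 were Ptprc, C1qc, Dock2, Cd300a, Ly86, Hpgds, Tie1, Erg, Ctla2a, Rasgrp3 and Fam167b. Of the other 6, Wscd1 had its highest mean at week 2. Rnase11, Slc17a6 and Vnn3 were at 0 in every library, Dcdc2c was at or below 0.111 CPM throughout, and Brinp1 was at 3.05 CPM in day 7 replicate 1 and at 0 elsewhere. These 5 genes did not pass the filter on low counts and were not tested. In bulk RNA, a larger share of cells of a type and more RNA per cell cannot be told apart.

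Among the leukocyte genes, Ptprc stood at 1.01 and 6.33 CPM in the uninjured libraries, 18.2 and 26.1 at day 3, 45.8 and 46.9 at day 7, 12.9 and 8.55 at week 2, and 1.86 and 5.51 at week 4. The day 7 pair lay above every other library, and week 4 overlapped the uninjured range. Ptprc rose from uninjured to day 7 by a log2 fold change of 3.66 ± 0.78 (SE, adjusted p = 0.016) and fell from day 7 to week 4 by 3.64 (adjusted p = 0.032). By the authors' peak lists its region, chr1:138174742-138175608 (mm10), had a fold enrichment of 2.95 and 3.48 and no week 2 peak.

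C1qc stood at 1.71 and 9.11 CPM in uninjured hearts, 33.1 and 60.5 at day 3, 133 and 274 at day 7, 36.5 and 47.1 at week 2, and 12.7 and 21.1 at week 4. Its groups at day 7 and day 3 did not overlap, but the difference between them did not pass (log2 fold change 2.12 ± 0.66, adjusted p = 0.17). Against uninjured hearts it rose by 5.23 ± 0.77 (adjusted p = 0.0043), and from day 7 to week 4 it fell by 3.59 (adjusted p = 0.034). The region at its start, chr4:136892845-136893525, stood at 2.68 in replicate 1, below the lower quartile of the regions, and at their median of 3.48 in replicate 2.

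The other 4 leukocyte genes also stood highest at day 7, but did not pass day 7 against uninjured hearts. Dock2 was at 9.30 and 5.91 CPM at day 7 and at most 4.27 in any other library (adjusted p = 0.13). Cd300a was at 11.5 and 33.9 CPM at day 7 and at most 5.64 elsewhere (adjusted p = 0.12). Dock2 had 3 counts and Cd300a 9 counts in the uninjured pair, so no fold is given. Ly86 was at 17.03 and 21.9 CPM at day 7 and at most 5.38 elsewhere (adjusted p = 0.075 against uninjured hearts). Against the mean of uninjured, day 3 and week 4, the groups in which the selection asked for no peak, Ly86 was higher with an adjusted p of 0.044. Hpgds was at 17.03 and 19.2 CPM at day 7 and between 1.36 and 10.2 elsewhere (adjusted p = 0.16).

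Among the endothelial genes, Erg stood at 0.373 and 1.18 CPM in uninjured hearts and at 1.01 and 0.887 at day 3. It stood at 25.2 and 46.0 CPM at day 7, 21.4 and 21.7 at week 2 and 18.5 and 17.3 at week 4. It was thus near the bottom of the range before day 7 and stayed up afterwards. Erg rose by 5.51 ± 0.65 against uninjured hearts (adjusted p = 0.00041) and by 5.22 ± 0.64 against day 3 (adjusted p = 0.0064). The difference between week 4 and day 7 did not pass (−0.99 ± 0.53, adjusted p = 0.36). Erg had 3 regions. One, at chr16:95458481-95460581, covered its start with 4.56 and 3.97 and had peaks in both week 2 lists. The others lay at chr16:95463709-95464662 within the gene and at chr16:95637698-95638288, 51105 bp beyond it.

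Tie1 stood at 6.93 and 3.59 CPM in uninjured hearts, 0.594 and 0 at day 3, 24.7 and 35.3 at day 7, 11.1 and 11.4 at week 2 and 18.3 and 11.6 at week 4. Its lowest values were at day 3, and all 4 later libraries lay above both uninjured ones. It passed day 7 against day 3 (log2 fold change 6.65 ± 1.05, adjusted p = 0.012, on 10 counts at day 3) but not against uninjured hearts (2.51 ± 0.83, adjusted p = 0.097). Its region at chr4:118489536-118490305 stood at 2.68 and 4.22 and had no week 2 peak.

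Ctla2a stood at 3.89 and 7.83 CPM in uninjured hearts, 15.7 and 16.2 at day 3, 55.3 and 67.8 at day 7, 18.9 and 51.1 at week 2 and 6.37 and 13.01 at week 4. It rose against uninjured hearts by 3.39 ± 0.57 (adjusted p = 0.004) and fell from day 7 to week 4 by 2.66 (adjusted p = 0.029). Rasgrp3, which encodes a Ras activator, was at 28.6 and 22.9 CPM at day 7, just above 22.4 in week 2 replicate 2, and did not pass against uninjured hearts (1.11 ± 0.69, adjusted p = 0.4). Fam167b was at 5.07 and 7.60 CPM at day 7 and at most 1.80 elsewhere (adjusted p = 0.39).

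Several of these calls were lost when 1 library was left out. That leaves 1 library in its group, so a lost call does not by itself show that it rested on that library. Without day 7 replicate 2, Ptprc no longer passed against uninjured hearts, with a log2 fold change of 3.62 (3.66 with all libraries). Nor did Tie1 against day 3, with 6.39 (6.65 with all libraries). The calls of C1qc, Ctla2a and Erg against uninjured hearts, and of Erg against day 3, passed when any 1 of the 10 libraries was dropped. The falls from day 7 to week 4 did not: without week 4 replicate 1 the adjusted p was 0.23 for Ptprc, 0.33 for C1qc and 0.21 for Ctla2a. That of Ptprc also failed without day 7 replicate 1, day 7 replicate 2 or week 4 replicate 2. That of C1qc failed in all but 3 of the 10 cases, and that of Ctla2a also failed without day 7 replicate 2 or week 4 replicate 2. For Ly86, the higher level against the mean of the 3 groups had an adjusted p of 0.34 without day 7 replicate 2.

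**Figure D3:**
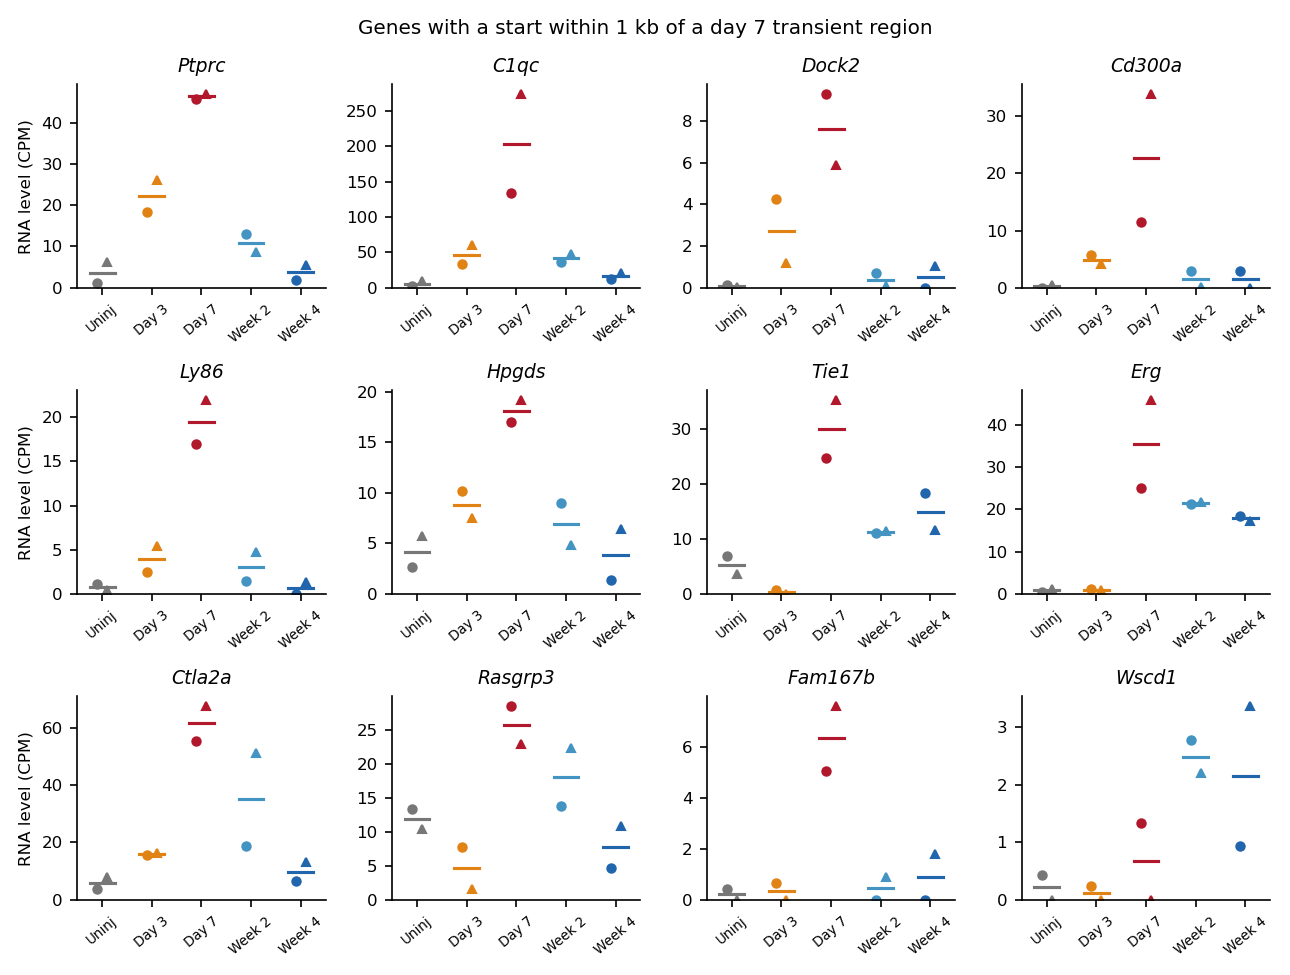
RNA level (vertical axis, CPM, each panel with its own scale from 0) by group (horizontal axis) for the 12 tested genes with a start within 1 kb of a day 7 region. Circles are replicate 1, triangles replicate 2 and lines the mean of the 2 libraries. In all panels but that of Wscd1 both day 7 libraries lie above all others.

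Macrophage and endothelial markers also summed highest at day 7. The macrophage list of 25 genes, 4 of which (Aif1, C1qc, Ctss and Ptprc) were linked to a region, summed to 93.2 and 102 CPM in uninjured hearts, with 3 and 5 of the 25 at 0. The sums were 951 and 1559 at day 3, 2545 and 4250 at day 7, 669 and 836 at week 2 and 216 and 335 at week 4. Of its 24 tested genes, 21 rose from uninjured hearts to day 7. Cd163 and Lyz1 were at 0 in day 7 replicate 2. The endothelial list of 18 genes, with Erg and Tie1 linked, summed to 901 and 796 CPM in uninjured hearts, 473 and 347 at day 3, 1184 and 1525 at day 7, 934 and 872 at week 2 and 950 and 967 at week 4. Tie1 and Vwf were at 0 in day 3 replicate 2, and no endothelial marker was at 0 in another library. Of the 18, 7 rose from uninjured hearts to day 7 and 1 fell. Tek went from 289 and 222 to 115 and 92.1 CPM. The other lists differed in direction. Their median log2 fold change was −1.48 for cardiomyocytes, −2.41 for erythroid and −0.42 for Schwann cells. It was 0.71 for pericytes and smooth muscle, 0.61 for epicardium, 4.85 for granulocytes and 6.95 for lymphocytes. The last 3 medians rest on few or low genes. Of 8 granulocyte genes tested 0 rose, of 7 lymphocyte genes 1, and of 11 epicardial genes 0. Granulocyte genes summed to 1.28 and 2.47 CPM in uninjured hearts and 7.09 and 34.2 at day 7. Lymphocyte genes summed to 13.3 and 10.3 CPM in uninjured hearts, 65.2 and 61.9 at day 3 and 32.5 and 59.8 at day 7. The epicardial sums were 91.4 and 72.4 CPM in uninjured hearts and 89.1 and 49.5 at day 7. The part of other cell types in the day 7 levels of the linked genes was not tested. The labelled cell type was checked on Tcf21, at 23.1 and 31.6 CPM in uninjured hearts and 12.01 and 9.53 at day 7 (adjusted p = 0.18). Postn, the activated fibroblast gene periostin, was at 630 and 431 CPM in uninjured hearts and 11770 and 12930 at day 7, and had no linked region. Acta2, also without a linked region, was at 191 and 91.9 CPM in uninjured hearts, 972 and 1283 at day 3 and 642 and 950 at day 7. It rose from uninjured hearts to day 7 by 2.49 ± 0.46 (adjusted p = 0.012), a call lost without day 7 replicate 2 or uninjured replicate 2.

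Across all linked genes, a small share differed between groups. The 985 linked regions pointed to 901 genes, of which 676 passed the filter on low counts and 225 did not. Among the 676, 51 (7.54%) were higher at day 7 than in uninjured hearts by edgeR's quasi-likelihood test at a Benjamini-Hochberg adjusted p under 0.05, against 4.39% of all 14968 genes tested, and 20 (2.96%) were lower, against 2.76%. The median log2 fold change was 0.14 for the linked genes and 0.00 for all genes. Against day 3, 13 linked genes were higher at day 7 (1.92%, against 0.822%) and 1 was lower (0.148%, against 0.555%). Against the mean of uninjured, day 3 and week 4, 27 were higher at day 7 (3.99%, against 2.04%) and 2 were lower (0.296%, against 0.474%). From day 7 to week 4, 11 linked genes were lower (1.63%, against 1.52%) and 3 were higher (0.444%, against 0.895%). From day 7 to week 2, 3 were lower (0.444%, against 0.454%). These counts changed when 1 library was left out, which leaves 1 library in its group, and so did the shares of all genes tested. Without day 7 replicate 2, 23 linked genes were higher than in uninjured hearts (3.22%, against 1.44%), 1 was lower (0.140%, against 0.512%), and 1 was higher than at day 3 (0.140%, against 0.1249%), a share near that of all genes. Without uninjured replicate 2, 23 were higher than in uninjured hearts (3.23%, against 1.58%) and 3 were lower (0.421%, against 0.689%), and without uninjured replicate 1, 10 were lower (1.40%, against 1.24%). Against day 3, 3 were higher without day 3 replicate 2 (0.423%, against 0.119%), 8 without day 7 replicate 1 (1.13%, against 0.526%) and 29 without day 3 replicate 1 (4.09%, against 1.97%). Against the mean of 3 groups, 9 were higher without day 7 replicate 2 (1.26%, against 0.543%). From day 7 to week 4, 2 were lower without day 7 replicate 2 (0.280%, against 0.169%) and 7 without week 4 replicate 2 (0.979%, against 0.450%), and none passed without week 4 replicate 1, where 32 of all genes did. The highest group mean was at day 7 for 158 of the 676 (23.4%), against 16.8% of all genes tested. Both day 7 libraries lay above all 8 others for 47 of the 676 (6.95%), against 3.81% of all genes tested. The filter keeps genes through any group in which they are high, so these shares cover only the linked genes that passed it.

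The linked genes were long, with a median span of 78.8 kb against 21.9 kb for all genes tested. Among genes with a span of 50 kb or more, 25 of 420 linked genes (5.95%) were higher at day 7 than in uninjured hearts, against 3.97% of 4001. The share of linked genes that were higher was 8.02% where the region lay in the gene's span and 7.28% where it lay outside. It was 6.92% for genes with a region called at week 2 and 7.85% for genes with a region not called there. Genes linked to regions of other classes were higher in 4.10% of cases for regions called only at day 3, 6.27% for day 3 and day 7 and 9.73% for week 4 only. Genes linked to regions called only in uninjured hearts were higher in 1.595% and lower in 12.3% of cases.

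**Figure D4:**
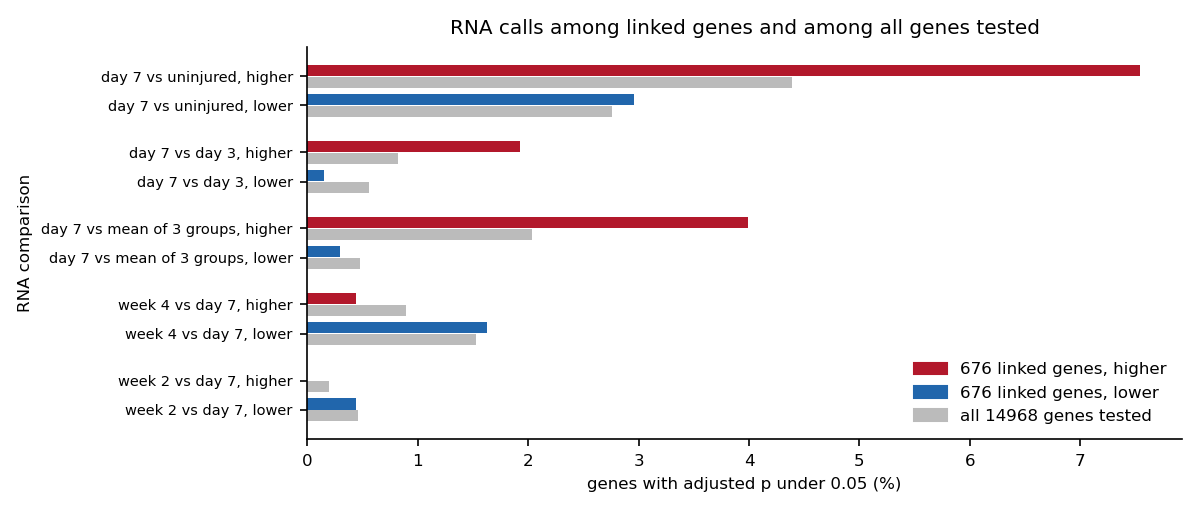
Percent of genes with an adjusted p under 0.05 (horizontal axis) in each RNA comparison and direction (vertical axis). Coloured bars are the 676 tested genes linked to day 7 regions and grey bars all 14968 genes tested. The widest gap is for genes higher at day 7 than in uninjured hearts, 7.54% against 4.39%.

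Of the 51 linked genes that were higher at day 7 than in uninjured hearts, 5 were in a list of markers of other cell types. The macrophage list held 4 of the 51 and the endothelial list 1. Of all 657 genes called higher, 21 were on the macrophage list, 7 on the endothelial list and 2 on that of pericytes and smooth muscle. The lymphocyte and cardiomyocyte lists held 1 each. The lists leave out leukocyte genes such as Cd53, Hcls1 and Slamf7, given below, so they do not count all genes of other cells. These shares were not tested. Among the 5 linked genes, Ctss (cathepsin S, a lysosomal protease of macrophages) stood at 8.79 and 4.23 CPM in uninjured hearts, 136 and 206 at day 3, 393 and 539 at day 7, 51.2 and 134 at week 2 and 14.5 and 25.04 at week 4. Its day 7 pair lay far above all other libraries. It rose by 6.16 ± 0.60 (adjusted p = 0.00037) and fell to week 4 by 4.56 (adjusted p = 0.0068). Its region, chr3:95529794-95530444, lay in the gene 3008 bp from the start and stood at 2.68 and 3.23.

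Cd53, which encodes a leukocyte tetraspanin, stood at 1.92 and 0.482 CPM in uninjured hearts, 27.2 and 26 at day 3, 42.1 and 80.5 at day 7, 11.8 and 10.2 at week 2 and 2.23 and 5.12 at week 4. It rose by 5.67 ± 0.70 (adjusted p = 0.00055) and fell to week 4 by 4.05 (adjusted p = 0.0099). The region chr3:106788245-106788839 lay 1310 bp from its start. Aif1, the microglia and macrophage gene for IBA1, was at 11.9 and 12.2 CPM at day 7 and at most 5.88 elsewhere, and rose against uninjured hearts (adjusted p = 0.022, on 10 counts there). Hcls1, which encodes a cortactin relative of blood cells, was at 8.96 and 21.1 CPM at day 7, 0.426 and 0 in uninjured hearts (adjusted p = 0.04). Slamf7, a receptor gene of leukocytes, was at 13.1 and 17.2 CPM at day 7 and at 0.107 and 0 in uninjured hearts (adjusted p = 0.012). Uninjured counts were 8 for Hcls1 and 2 for Slamf7, so no fold is given. Otulinl rose from 1.12 and 1.07 to 15.6 and 22.4 CPM (4.11 ± 0.82, adjusted p = 0.01).

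Ada, the gene for adenosine deaminase, followed another course. It stood at 4.42 and 6.27 CPM in uninjured hearts, 139 and 112 at day 3, 74.7 and 48.5 at day 7, 16.9 and 12.8 at week 2 and 17.3 and 14.7 at week 4. The day 3 pair lay above the day 7 pair, and the region chr2:163743328-163744408 within the gene had no day 3 peak. Ada rose against uninjured hearts by 3.52 ± 0.36 (adjusted p = 0.00014) and fell from day 7 to week 4 by 1.94 (adjusted p = 0.014). Cd93, an endothelial and myeloid receptor gene, was at 29.1 and 21.9, 18.7 and 14.9, 87.3 and 128, 65.3 and 91.9, and 19.4 and 46.8 CPM in the same order of groups. Cd93 rose against uninjured hearts (2.08 ± 0.41, adjusted p = 0.01) and against day 3 (2.68 ± 0.42, adjusted p = 0.012), and fell to week 4 by 1.70 (adjusted p = 0.048). Its region, chr2:148467700-148468943, lay 24137 bp from the gene and had peaks in both week 2 lists. Prnd, the gene for the prion-like protein doppel, was at 34.2 and 109 CPM at day 7 and between 2.14 and 42.4 elsewhere (4.70 ± 1.00, adjusted p = 0.022). With each library left out in turn the rises against uninjured hearts of Ctss, Cd53 and Ada kept passing, whereas without day 7 replicate 2 the adjusted p was 0.084 for Cd93 and 0.23 for Hcls1. Without uninjured replicate 1 it was 0.16 for Aif1, and without uninjured replicate 2 it was 0.094 for Slamf7, 0.11 for Otulinl and 0.31 for Prnd. Without week 4 replicate 1 the falls to week 4 had adjusted p-values of 0.086 for Ctss, 0.086 for Cd53, 0.096 for Ada and 0.31 for Cd93. Without day 3 replicate 2 the rise of Cd93 against day 3 had an adjusted p of 0.092.

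Genes of fibroblasts and of the matrix were among the linked genes as well. Plod2, the lysyl hydroxylase that prepares collagen for crosslinks, stood at 90.4 and 85.7 CPM in uninjured hearts, 187 and 177 at day 3, 322 and 306 at day 7, 351 and 402 at week 2 and 154 and 234 at week 4. It peaked at week 2 by the mean, and its region chr9:92605381-92606593 had a peak in week 2 replicate 2. It rose by 1.84 ± 0.23 (adjusted p = 0.00055). Cdh2, the gene for N-cadherin with 2 regions in its span, stood at 12.6 and 6.92 CPM in uninjured hearts and 129 and 74.1 at day 7, with 78.6 and 78.3 at day 3. It rose by 3.38 ± 0.40 (adjusted p = 0.00041), and each of its regions had a peak in 1 week 2 list. Palld, the actin-bundling protein palladin of myofibroblasts, went from 51.1 and 17.3 to 250 and 215 CPM (2.77 ± 0.44, adjusted p = 0.0044) and was at 170 and 259 at day 3. Tyms, the thymidylate synthase gene of dividing cells, rose to 66.2 and 85.6 from 20.1 and 22.8 CPM (1.82 ± 0.28, adjusted p = 0.002) and stood higher still at day 3, at 138 and 169. Bcat1, which starts the breakdown of branched-chain amino acids, was likewise highest at day 3, at 172 and 252, and was the linked gene lower at day 7 than at day 3 (−2.03 ± 0.35, adjusted p = 0.018, and 0.14 without day 3 replicate 2).

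Rises against uninjured hearts with larger adjusted p-values included Col14a1, a fibril-associated collagen, at 418 and 254 CPM before and 718 and 748 at day 7 (1.13 ± 0.24, adjusted p = 0.016). Myh9, the non-muscle myosin heavy chain, went from 9.81 and 8.90 to 27.3 and 63.9 CPM (2.28 ± 0.50, adjusted p = 0.016). Lrp5, a Wnt co-receptor, went from 3.998 and 2.41 to 15.4 and 18.4 CPM (2.40 ± 0.56, adjusted p = 0.023), and was higher again at week 4. Fst, the activin antagonist follistatin, went from 14.2 and 10.6 to 37.9 and 32.5 CPM (1.51 ± 0.38, adjusted p = 0.032). Its highest values, 85.3 and 163, were at week 2. Itga11, a collagen-binding integrin, went from 36.2 and 22.9 to 65.7 and 138 CPM (1.78 ± 0.49, adjusted p = 0.049), and the transcription factor gene Foxp1 from 115 and 127 to 213 and 194 CPM (0.75 ± 0.20, adjusted p = 0.045). All 6 of these calls were lost when day 7 replicate 2 or uninjured replicate 2 was left out. The largest adjusted p with a library left out was 0.2 for Col14a1, 0.17 for Myh9, 0.23 for Lrp5, 0.23 for Fst, 0.38 for Itga11 and 0.28 for Foxp1. The rises of Plod2, Cdh2, Palld, Tyms and Bcat1 passed with each library left out.

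**Figure D5:**
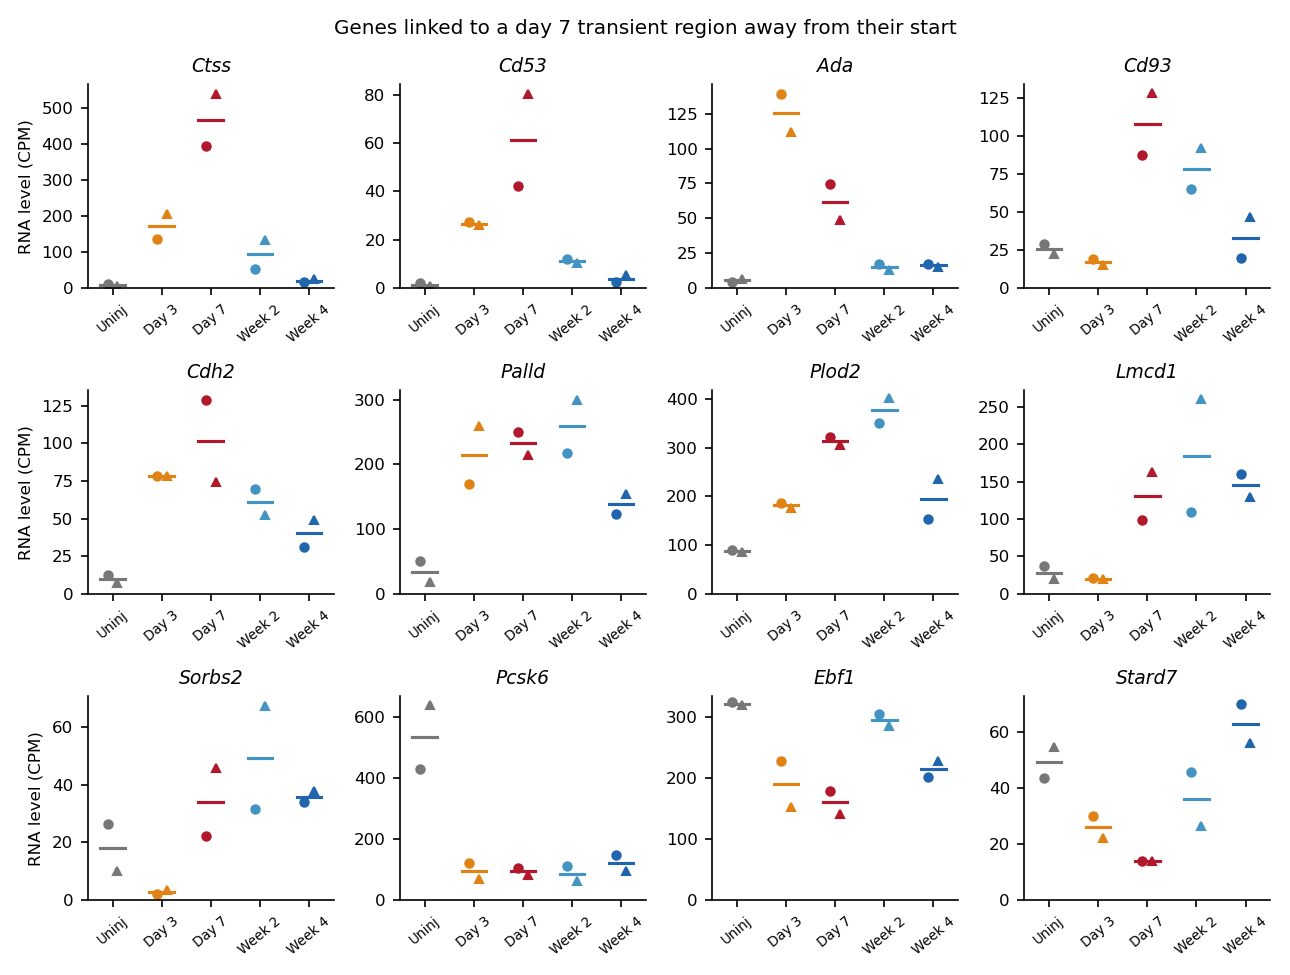
RNA level (vertical axis, CPM, each panel with its own scale from 0) by group (horizontal axis) for 12 genes linked to a day 7 region away from their start. Circles are replicate 1, triangles replicate 2 and lines the mean of the 2 libraries. Ctss and Cd53 peak at day 7, Ada at day 3, Plod2 at week 2, and Stard7 is lowest at day 7.

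Genes with a region open at day 7 also fell. Pcsk6, a proprotein convertase gene with 2 regions, stood at 429 and 639 CPM in uninjured hearts, 120 and 69.0 at day 3, 104 and 81.7 at day 7, 111 and 60.9 at week 2 and 146 and 92.8 at week 4. All libraries after MI lay far below the uninjured pair (−2.53 ± 0.38, adjusted p = 0.0023). Qpct, the glutaminyl cyclase gene, fell from 440 and 446 to 156 and 99.9 CPM (−1.79 ± 0.29, adjusted p = 0.0034). Ebf1 and Ebf2, transcription factor genes on the list of resident fibroblast genes, fell from 324 and 319 to 179 and 141 CPM (−1.01 ± 0.23, adjusted p = 0.021) and from 284 and 331 to 144 and 129 CPM (−1.17 ± 0.25, adjusted p = 0.015). Ebf1 had 2 regions in its span, with no week 2 peak. Stard7, a lipid transfer protein gene, was lowest at day 7. It stood at 43.7 and 54.6 CPM in uninjured hearts, 29.9 and 22.2 at day 3, 13.8 and 14.0 at day 7, 45.7 and 26.5 at week 2 and 69.9 and 56.0 at week 4. It fell by 1.82 (adjusted p = 0.0092) and rose to week 4 by 2.18 ± 0.36 (adjusted p = 0.011). Creb5, Antxr2, Fam49a, Asb13 and Zcchc24 fell by 1.39 to 1.90 on the log2 scale. Without day 7 replicate 2 the adjusted p of the falls was 0.055 for Pcsk6, 0.18 for Ebf1, 0.11 for Ebf2, 0.067 for Stard7, 0.13 for Creb5, 0.22 for Antxr2, 0.15 for Fam49a, 0.25 for Asb13 and 0.25 for Zcchc24, while that of Qpct passed with each library left out.

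Against day 3, the linked genes that were higher at day 7 included Sorbs2, Lmcd1, Tafa5, P3h2 and Col14a1 beside Erg, Tie1 and Cd93. Sorbs2, an adaptor protein gene of stress fibres, stood at 26.2 and 10.1 CPM in uninjured hearts, 1.96 and 3.21 at day 3, 22.1 and 46.0 at day 7, 31.4 and 67.5 at week 2 and 34.1 and 37.7 at week 4. It was low at day 3 alone (3.71 ± 0.60 against day 3, adjusted p = 0.014), and against uninjured hearts it did not pass (adjusted p = 0.37). Tafa5, a secreted protein gene, had a like course, with 12.3 and 2.25, 1.90 and 0.887, 23.5 and 27.3, 29.9 and 52.0, and 46.7 and 38.9 CPM in the same order (4.19 ± 0.73 against day 3, adjusted p = 0.019). Lmcd1, a LIM-domain cofactor gene, stood at 36.5 and 19.7, 20.96 and 19.3, 99.4 and 163, 109 and 260, and 161 and 130 CPM (2.70 ± 0.43 against day 3, adjusted p = 0.017). P3h2, a collagen prolyl 3-hydroxylase gene, stood at 12.2 and 11.6, 4.75 and 1.16, 14.0 and 19, 27.9 and 32.6, and 74.6 and 68.9 CPM. It rose from day 3 to day 7 (2.48 ± 0.53, adjusted p = 0.04) and again to week 4 (2.12 ± 0.51, adjusted p = 0.049). The week 4 means of these 4 genes were at or above their day 7 means, although the regions had no week 4 peak by the selection. Without day 3 replicate 2 the adjusted p against day 3 was 0.072 for Sorbs2, 0.19 for Tafa5, 0.16 for Lmcd1, 0.18 for P3h2 and 0.3 for Col14a1 (1.13 ± 0.24 with all libraries, adjusted p = 0.043).

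From day 7 to week 4, the linked genes that were lower included Ptprc, C1qc, Ctss, Cd53, Ctla2a, Cd93 and Ada, given above, and Gng2, a G protein subunit gene, which stood at 12.7 and 23.1 CPM at day 7 and 2.04 and 3.07 at week 4 (−2.80 ± 0.61, adjusted p = 0.035). The 3 that were higher were Stard7, P3h2 and B3gnt2, a glycosyltransferase gene that went from 20.97 and 21.5 to 45.9 and 59.4 CPM (1.31 ± 0.30, adjusted p = 0.041). Without week 4 replicate 1 the adjusted p was 0.27 for Gng2 and 0.22 for P3h2. Without week 4 replicate 2 it was 0.24 for B3gnt2, and without day 7 replicate 2 it was 0.089 for Stard7.

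Among the 9 genes with the most regions, Erg passed day 7 against uninjured hearts. Of the 901 linked genes, 827 had 1 region, 65 had 2, 8 had 3, and Mtss1, a gene for a membrane-bending protein, had 4. Mtss1 was at 5.02 and 12.2 CPM at day 7 and 5.49 and 9.60 in uninjured hearts (0.19 ± 0.81, adjusted p = 0.94). Its region 47656 bp beyond the gene, at chr15:59129661-59130725, was the strongest of the 4, at 6.44 and 5.21, with peaks in both week 2 lists. Of the other genes with 3 regions, Atp8a1, a lipid flippase gene, was at 18.7 and 22.8 CPM at day 7 and 14.6 and 9.65 in uninjured hearts (0.78 ± 0.63, adjusted p = 0.54). Auts2 (0.28 ± 0.43, adjusted p = 0.8), Prkch (1.28 ± 0.93, adjusted p = 0.48), Syn3 (−1.52 ± 1.58, adjusted p = 0.66) and Xxylt1 (−0.81 ± 0.71, adjusted p = 0.58) did not pass either, and Mageb18 was at 0 in every library. The remaining gene with 3 regions was the predicted gene Gm20388, named here although the naming rule leaves out predicted genes (−0.62 ± 1.51, adjusted p = 0.88).

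By gene list, the regions were linked to 3.54% of the 25475 genes of the table on the chromosomes used. They were linked to 9 of 78 mesenchymal and developmental transcription factor genes (11.5%), of which Erg and Foxp1 rose and Creb5 fell against uninjured hearts. Of 54 genes for growth factors and their receptors, 7 (12.96%) were linked. Among them, Pdgfc, with 2 regions, had a log2 fold change of 3.39 (adjusted p = 0.05, above the threshold before rounding), Nrg1 4.21 (0.078), Pdgfa 1.34 (0.095), Hgf 1.06 (0.21), Fgfr2 1.80 (0.56) and Hbegf 0.24 (0.72). Pdgfa, Pdgfc, Fgfr2 and Hbegf had their highest mean at week 2. Of 52 integrin and adhesion genes, 5 were linked and Cdh2 and Itga11 rose. Of 29 contractile genes, 4 were linked and Palld and Myh9 rose, while Tpm1 (0.77, adjusted p = 0.062) and Myh10 (0.08, adjusted p = 0.93) did not pass. Of 56 genes of TGF-beta and BMP signalling, 4 were linked and Fst rose, and of 56 Wnt genes 3 were linked and Lrp5 rose. Of 33 resident fibroblast genes, 2 were linked, Ebf1 and Ebf2, which fell. Of the lists of AP-1 and immediate-early genes (28), cytokines and chemokines (52), interferon-stimulated genes (32) and matricellular proteins (20), no gene was linked to a day 7 region. At the share of 3.54%, lists of these sizes would hold few linked genes, so an empty list is near that share. The shares by list take no account of gene length or of which genes were expressed, and were not tested.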

How the data were processed

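ATAC-seq and RNA-seq of sorted cardiac fibroblasts were analysed from the deposited peak lists and gene table, with 2 libraries for each of 5 groups. Per the submitters' processing notes, the tools were Trim Galore 0.6, FastQC, STAR 2.5.3a, DESeq2, Bowtie2 2.3 and MACS2, with the builds mm10 and GRCm38. The role of each tool, the counting program, its use of strand and the peak thresholds are recorded in none of the sources used here. The deposited gene table holds the authors' expected counts, which need not be whole. The authors' peak lists give, for each peak of each library, a fold enrichment (a ratio over local background), a −log10 p and −log10 q, and a score that is 10 times the −log10 q, cut to a whole number. Peaks were listed per library, with no read depth, so how depth differs between lists is unknown, and a missing peak means no call, not closed chromatin.

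Peaks of the 10 lists were merged where they shared at least 1 bp. Expected counts were rounded and tested with edgeR 4.0.16 in R 4.3.3 (TMM scaling, filterByExpr, robust quasi-likelihood test, all 10 libraries in 1 fit, Benjamini-Hochberg adjustment over 14968 genes, threshold 0.05). Standard errors are the log2 fold change divided by the square root of F. CPM was computed from the counts. Python 3.11.15, pandas 2.3.3, numpy 2.4.6 and matplotlib 3.10.9 were used for the rest. The edgeR step was tried on simulated counts for day 7 against uninjured hearts, while the region, link and motif steps were not tried on simulated data. The main fit treated replicate numbers as unpaired, because RNA deviations by replicate number shared no clear pattern between groups. Whether libraries were paired is not given in the sources used here. Genes were named where they were linked to a day 7 region and passed a comparison, ranked by size with a minimum mean level, where a start lay within 1 kb, or where they had the most regions. Tcf21, Postn and Acta2 were named whatever their result. The regions, gene lists and motifs were chosen with earlier results of these data known. The motif CAGGAAG, the genes with a start at a region that passed no comparison and the share among spans of 50 kb or more were added after values were seen. Gene starts and promoter sequences came from RefSeq tables of GRCm38.p6. The planned motif search around peak summits needs a genome sequence and was not run. Alternatives were RLE scaling, no filter on low counts, a replicate block, DESeq2 1.42.0, links within 10 kb or to spans and starts only, stricter peaks and each library left out.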

Additional observations from a re-analysis of the deposited data

Results flagged for a closer look

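Genes linked to the day 7 regions were looked at again where the change after injury differed between times by a test of the difference itself, edgeR's quasi-likelihood test with Benjamini-Hochberg adjustment. Between day 7 and week 4, the log2 difference was −4.56 for Ctss, −4.05 for Cd53, −3.64 for Ptprc, −3.59 for C1qc, −2.80 for Gng2, −2.66 for Ctla2a, −1.94 for Ada and −1.70 for Cd93. It was 2.18 for Stard7, 2.12 for P3h2 and 1.31 for B3gnt2. Between day 3 and day 7, it was 6.65 for Tie1, 5.22 for Erg, 4.19 for Tafa5, 3.71 for Sorbs2, 2.70 for Lmcd1, 2.68 for Cd93, 2.48 for P3h2, 1.13 for Col14a1 and −2.03 for Bcat1. Cd93 and P3h2 passed in both steps. Cd93 rose and then fell, and P3h2 rose in each. Of these calls, that of Erg passed with each of the 10 libraries left out, and every other was lost without at least 1 library.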

How the results depend on the processing

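The number of regions depends on the peak threshold: 151 were found with a −log10 q of 5 in both day 7 lists and 689 with it in all lists. At those settings 71.5% and 49.5% had a week 2 peak, and 41.1% and 37.45% lay in a gene span. With 1 list left out, the number ranged from 1194 to 6647, the week 2 share from 14.13% to 50.86% and the span share from 38.67% to 55.48%. The highest number, 6647, came without day 7 replicate 1. Called linked genes are given with their share of linked genes tested, against that of all genes tested. Those higher at day 7 than in uninjured hearts numbered 89 with DESeq2 (13.4%, against 7.82%), 32 with links to spans and starts only (7.96%, against 4.39%) and 5 with strict peaks (5.62% of 89 genes). Those lower numbered 39 with no filter (5.15%, against 4.67%), 37 with DESeq2 (5.56%, against 6.14%), 13 within 10 kb (2.70%, against 2.76%), 10 with spans and starts only (2.49%) and 6 with strict peaks (6.74%), so that with strict peaks more linked genes were lower than higher. Against day 3, those higher numbered 54 with no filter (7.12%, against 2.62%), 51 with DESeq2 (7.66%, against 3.58%) and 4 with strict peaks (4.49%, against 0.822%), and those lower 7 (0.924%, against 1.83%), 12 (1.80%, against 3.19%) and 0. From day 7 to week 4, those lower numbered 33 with no filter (4.35%, against 3.21%), 40 with DESeq2 (6.01%, against 4.97%) and 2 with strict peaks (2.25%, against 1.52%). Those higher numbered 24 (3.17%, against 3.94%), 20 (3.003%, against 4.13%) and 0, and 1 with spans and starts only (0.249%, against 0.895%). Against the mean of 3 groups, those higher numbered 67 (8.84%, against 3.69%), 54 (8.11%, against 3.92%) and 3 (3.37%, against 2.04%). Those lower numbered 14 with no filter (1.85%, against 2.40%), 12 with DESeq2 (1.80%, against 3.17%), 1 with RLE scaling (0.148%, against 0.501%) and 1 with the replicate block (0.148%, against 0.641%). They numbered 0 within 10 kb, with spans and starts only, and with strict peaks. With 1 library left out, those higher and lower ranged from 23 to 62 and 1 to 28 against uninjured hearts, 1 to 29 and 0 to 4 against day 3, and 9 to 35 and 0 to 7 against the mean. From day 7 to week 4 those lower ranged from 0 to 16 and those higher from 0 to 7. The cause of these shifts was not tested. With the replicate block, 53 linked genes were higher and 23 lower against uninjured hearts. The deviation of replicate 1 from its group's mean log2 CPM, correlated over genes between pairs of groups, gave values of −0.018 to 0.029. Of the 37 named genes called against uninjured hearts, 36 stayed called with RLE scaling, 36 with no filter, 35 with the block and 37 with DESeq2, but 13 without day 7 replicate 2 and 15 without uninjured replicate 2. No named gene's value changed sign in these settings while called. The summit motif search and its shorter window were not run. The depth of the ATAC libraries is unknown, so weak peaks missing from a list may have been below detection.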
